A study of Mus musculus with 16 samples.

Results

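The insulin-like growth factor axis was followed here through 10 genes: the ligands Igf1 and Igf2, the receptors Igf1r and Igf2r, and the binding protein genes Igfbp2, Igfbp3, Igfbp4, Igfbp5, Igfbp7 and Igfbpl1. They were found by symbol among the 27179 gene IDs of the count table, and all 10 were among the 15785 genes tested. The set was chosen by family, and its rule also names 2 measured results, a rise of Igfbp3 and a fall of Igfbpl1. The rule does not say in which contrast. It was taken to be Ing4+/- Ing5-/- against wild-type hearts, and values of Igfbp3 and Igfbpl1 are given as descriptions in every contrast, since the Ing5-/- hearts may also have entered the choice.

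RNA was sequenced from 16 mouse embryo hearts at embryonic day 10.5, 4 hearts per genotype. The genotypes were wild-type (Ing4+/+ Ing5+/+), Ing4+/- (Ing4+/- Ing5+/+, 1 allele lost), Ing5-/- (Ing4+/+ Ing5-/-, 2 alleles lost) and Ing4+/- Ing5-/- (3 alleles lost). No treatment or allele other than these was named in the labels, which also do not say how the alleles were made. Ing4 and Ing5 encode related chromatin proteins of histone acetyltransferase complexes. Litters numbered 7, and none of them gave both a wild-type and an Ing5-/- heart.

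Insulin-like growth factors are secreted peptides that drive growth by activating the tyrosine kinase receptor Igf1r. The other receptor, Igf2r, carries Igf2 to the lysosome for breakdown and so limits how much ligand reaches Igf1r. Binding proteins hold the ligands outside the cell, prolong their life or keep them from the receptor, and proteases free the ligand again. In the embryonic heart Igf2 is known as a growth signal from the epicardium and endocardium to the heart muscle. Igf2, Igf2r and H19 are imprinted genes, expressed mainly from 1 parental copy.

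Among the binding protein genes, only Igfbp3 and Igfbp2 were called higher in Ing4+/- Ing5-/- than in Ing4+/- hearts (edgeR adjusted p under 0.05). Their upstream sequences are shown for that reason, and because a list of low oxygen response genes was also higher there. A link between the 2 was not tested. Each sequence is the 250 bases before the start given by RefSeq (build GRCm38.p6), written 5′ to 3′ along the gene's strand. The window of Igfbp3 shown is chr11:7213924-7214173 on the minus strand, and that of Igfbp2 is chr1:72824230-72824479 on the plus strand, the first of its 2 windows. The Igfbp3 window lies inside the span given below for that gene (7206086 to 7215498). Its start is thus not the outermost end of the gene, whereas the Igfbp2 window ends next to the gene span. The other Igfbp2 window (chromosome 1, 72825137 to 72825386) held 0 matches to the motifs below and is not printed. No exon of the GENCODE annotation overlapped either window. Capitals mark the letters ACGTG or GCGTG on either strand, the core of the elements bound by hypoxia-inducible factors.
Igfbp3: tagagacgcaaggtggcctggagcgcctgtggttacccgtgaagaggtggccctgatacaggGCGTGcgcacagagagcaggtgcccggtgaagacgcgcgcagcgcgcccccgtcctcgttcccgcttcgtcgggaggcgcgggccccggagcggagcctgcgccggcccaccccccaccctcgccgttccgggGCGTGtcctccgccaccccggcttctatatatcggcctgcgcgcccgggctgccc
Igfbp2: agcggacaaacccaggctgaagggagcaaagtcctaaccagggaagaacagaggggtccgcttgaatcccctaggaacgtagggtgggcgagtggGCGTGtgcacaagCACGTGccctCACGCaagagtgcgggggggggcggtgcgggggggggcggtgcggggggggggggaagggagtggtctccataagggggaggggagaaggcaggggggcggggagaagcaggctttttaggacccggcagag

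Igfbp3 held GCGTG at 2 places, which began 188 and 55 bases before the start. Igfbp2 held 4 matches beginning between 155 and 132 bases before the start, and its run CACGTG was counted on both strands because it reads as ACGTG on each. Over all 32851 promoter windows of the same length, 16.6% held ACGTG, 28.2% held GCGTG and 38.6% held either. Of the 13 windows of the axis, which covered 9 of the 10 genes, 7 held either motif. Besides the 2 genes shown, Igf2r held 6 matches, Igf1r 3, Igfbp7 2, and Igf1 and Igf2 held 1 each. Igf2r, Igf1r, Igfbp7 and Igf2 were not called in any comparison, and Igf1 was called lower in Ing4+/- Ing5-/- than in Ing4+/- hearts. Igfbpl1 had no window in the table. A match describes the letters only, and a role of these motifs in the measured levels was not tested.

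The libraries held 19753100 to 35664331 counted reads. Ing4+/- 4 stood apart on the first principal component (25.3% of the variance) and Ing5-/- 1 on the second (14.7%). Ing4+/- Ing5-/- 2 had the highest sum of erythroid markers (49723 CPM), and values without these 3 libraries are given where that changes a call of the axis. Counts over the whole Ing5 gene averaged 33.5 ± 3.46 CPM (reads scaled to the library size with TMM, SD, n = 4) in wild-type hearts, 37.2 ± 3.70 in Ing4+/- hearts, 23.5 ± 4.48 in Ing5-/- hearts and 21.0 ± 2.75 in Ing4+/- Ing5-/- hearts, so reads of Ing5 remained in both null groups. Ing4 averaged 39.5 ± 7.60, 34.1 ± 1.85, 51.0 ± 7.31 and 34.3 ± 1.90 CPM in the same order, and the deleted part of neither gene is given in the labels. Single libraries went against these means: the library labelled wild-type 2 had 28.2 CPM of Ing4, below all 8 hearts labelled Ing4+/- (32.0 to 36.3), and the library labelled Ing5-/- 1 had 29.3 CPM of Ing5, above the library labelled wild-type 3 (28.9). All genotype names here are those of the labels. Markers of heart muscle were abundant in every heart (sum of 10 genes 18424 to 31966 CPM, the lowest in Ing5-/- 1).

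Set against gene length, Igf2 was by far the most abundant transcript of the axis. It averaged 1503 ± 81.9 CPM per kilobase (SD over 16 hearts) and ranked 23rd of the 15785 tested genes on that scale. Igf2r (288 ± 38.3 CPM per kilobase) and Igfbp5 (283 ± 46.5) followed and did not differ beyond their spread, since the hearts ranged from 228 to 373 and from 214 to 359. Igfbp4 averaged 188 ± 13.2 and Igfbp2 77.0 ± 12.4 CPM per kilobase, with no overlap between those 2. Igfbpl1 averaged 40.9 ± 9.64, Igfbp7 23.2 ± 3.30 and Igfbp3 14.3 ± 6.10 CPM per kilobase, and each of these overlapped the next. Igf1r (12.5 ± 1.07) lay within the range of Igfbp3, and Igf1 was lowest at 7.61 ± 1.21 CPM per kilobase. The ligand Igf1 was therefore present at a far lower level than Igf2.

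**Figure D1:**
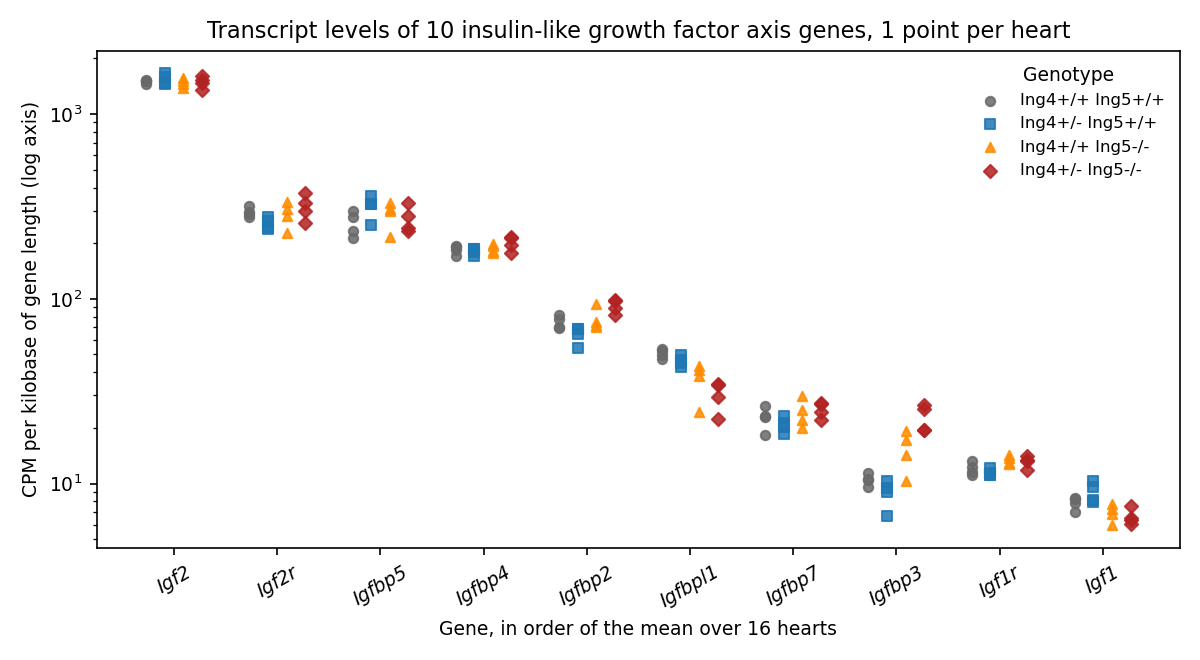
Level of each of the 10 genes in each of 16 hearts, as CPM per kilobase of gene length on a log axis, with colour and symbol for genotype and genes in the order of their mean. Igf2 (1503 CPM per kilobase) is highest and Igf1 (7.61) lowest, and Igfbp3 spreads most widely between hearts (6.69 to 26.6 CPM per kilobase).

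The genes differed in how much they varied. The coefficient of variation over the 16 hearts was 5.45% for Igf2, 7.00% for Igfbp4 and 8.55% for Igf1r, the 3 lowest. It was 23.6% for Igfbpl1 and 42.6% for Igfbp3, the 2 genes that the rule names. These values include the differences between genotypes by which the 2 genes were chosen, so their high place is no separate result. The highest heart exceeded the lowest 3.97-fold for Igfbp3, 2.41-fold for Igfbpl1 and 1.24-fold for Igf2. Even the smallest count of Igfbp3 in a heart was 376 reads.

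Igf1 was lower in Ing4+/- Ing5-/- than in Ing4+/- hearts, while Igf2 was close to level in all 4 genotypes. Igf1 (gene ID 16000, chromosome 10, 87858265 to 87937047, plus strand) measured 61.2, 65.1, 55.0 and 64.7 CPM in the wild-type hearts and 75.2, 62.4, 63.6 and 80.5 in the Ing4+/- hearts. It measured 60.3, 57.1, 46.4 and 53.3 CPM in the Ing5-/- hearts and 47.1, 49.8, 50.9 and 59.4 in the Ing4+/- Ing5-/- hearts. Every Ing4+/- heart was above every heart of both Ing5-null genotypes, and the wild-type hearts overlapped both. Against Ing4+/- hearts, Igf1 fell by 0.44 ± 0.10 on the log2 scale (SE) in Ing4+/- Ing5-/- hearts, from 70.4 ± 8.84 to 51.8 ± 5.29 CPM (edgeR quasi-likelihood test, Benjamini-Hochberg adjusted p = 0.0280 over all genes). In the 3 litters that held both genotypes the log2 difference of Igf1 was -0.32, -0.32 and -0.44. The call of Igf1 was lost without Ing4+/- Ing5-/- 1, 2 or 3 (adjusted p = 0.0923, 0.109 and 0.0835 by edgeR), without Ing4+/- 1 or 4 (0.0992 and 0.101), without the 3 libraries named above (-0.36, adjusted p = 0.0949) and with litter in the model (adjusted p = 0.0971). In Ing5-/- against Ing4+/- hearts Igf1 differed by -0.38 ± 0.10 and was not called (edgeR adjusted p = 0.178). Against wild-type hearts, Igf1 differed by -0.25 ± 0.10 in Ing4+/- Ing5-/- hearts (edgeR adjusted p = 0.324). In Ing4+/- hearts it differed from wild-type hearts by 0.20 ± 0.10 (edgeR adjusted p = 0.963), and neither was called.

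Igf2 (gene ID 16002, chromosome 7, 142650768 to 142666816, minus strand) measured 6144, 6407, 6498 and 6418 CPM in the wild-type hearts and 7033, 6720, 6221 and 6178 in the Ing4+/- hearts. The Ing5-/- hearts gave 5863, 6644, 6424 and 6147 CPM, and the Ing4+/- Ing5-/- hearts 6209, 5682, 6453 and 6839. The groups overlapped in every comparison. In the 6 pairwise comparisons and the interaction, its log2 difference lay between -0.06 and 0.04, with an SE of 0.08 for each pairwise comparison, and no call was made. The antisense gene Igf2os and the microRNA Mir483 overlap Igf2, and the counter's strand setting is not given, so reads of Igf2 and Igf2os (54040 reads in all libraries) may not be fully told apart.

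Neither receptor passed the test in any comparison. Igf1r measured 138, 148, 133 and 158 CPM in wild-type hearts, 145, 134, 137 and 133 in Ing4+/- hearts, 164, 170, 155 and 152 in Ing5-/- hearts and 142, 158, 161 and 168 in Ing4+/- Ing5-/- hearts. Each Ing5-/- heart was above each Ing4+/- heart, a log2 difference of 0.22 ± 0.07 (edgeR adjusted p = 0.246), and the Ing4+/- Ing5-/- hearts overlapped the Ing4+/- hearts (0.20 ± 0.07, adjusted p = 0.199). Igf2r measured 2623, 2582, 2465 and 2836 CPM in wild-type and 2361, 2198, 2130 and 2463 in Ing4+/- hearts, without overlap (log2 difference -0.20 ± 0.12, edgeR adjusted p = 0.963). It spread more widely in the Ing5-null groups, with 2036, 2977, 2747 and 2517 CPM in Ing5-/- and 2293, 3326, 2942 and 2666 in Ing4+/- Ing5-/- hearts. The lowest and the highest of the 16 values belonged to Ing5-/- 1 and Ing4+/- Ing5-/- 2, 2 of the 3 libraries above. The ratio of Igf2 to Igf2r per kilobase was 5.12 ± 0.346 in wild-type hearts, 6.04 ± 0.517 in Ing4+/- hearts, 5.21 ± 0.599 in Ing5-/- hearts and 4.84 ± 0.941 in Ing4+/- Ing5-/- hearts (SD, n = 4), and the ranges of the groups overlapped. Airn, which is transcribed antisense to Igf2r, had 9132 reads in all libraries.

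Igfbp3, a carrier of the ligands that also binds cells, was highest in Ing4+/- Ing5-/- hearts and intermediate in Ing5-/- hearts. Igfbp3 (gene ID 16009, chromosome 11, 7206086 to 7215498, minus strand) measured 23.4, 28.0, 25.8 and 25.6 CPM in wild-type and 25.2, 23.1, 22.1 and 16.4 in Ing4+/- hearts. It measured 42.1, 34.7, 46.9 and 25.2 CPM in Ing5-/- and 47.7, 61.7, 47.9 and 65.1 in Ing4+/- Ing5-/- hearts. The Ing4+/- Ing5-/- hearts lay above all 12 others, 3 of the 4 Ing5-/- hearts lay above all wild-type and Ing4+/- hearts, and Ing5-/- 4 lay among the wild-type hearts. The mean was 25.7 ± 1.88 CPM in wild-type and 55.6 ± 9.08 in Ing4+/- Ing5-/- hearts, a log2 difference of 1.11 ± 0.17, which is the value the gene was chosen by.

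**Figure D2:**
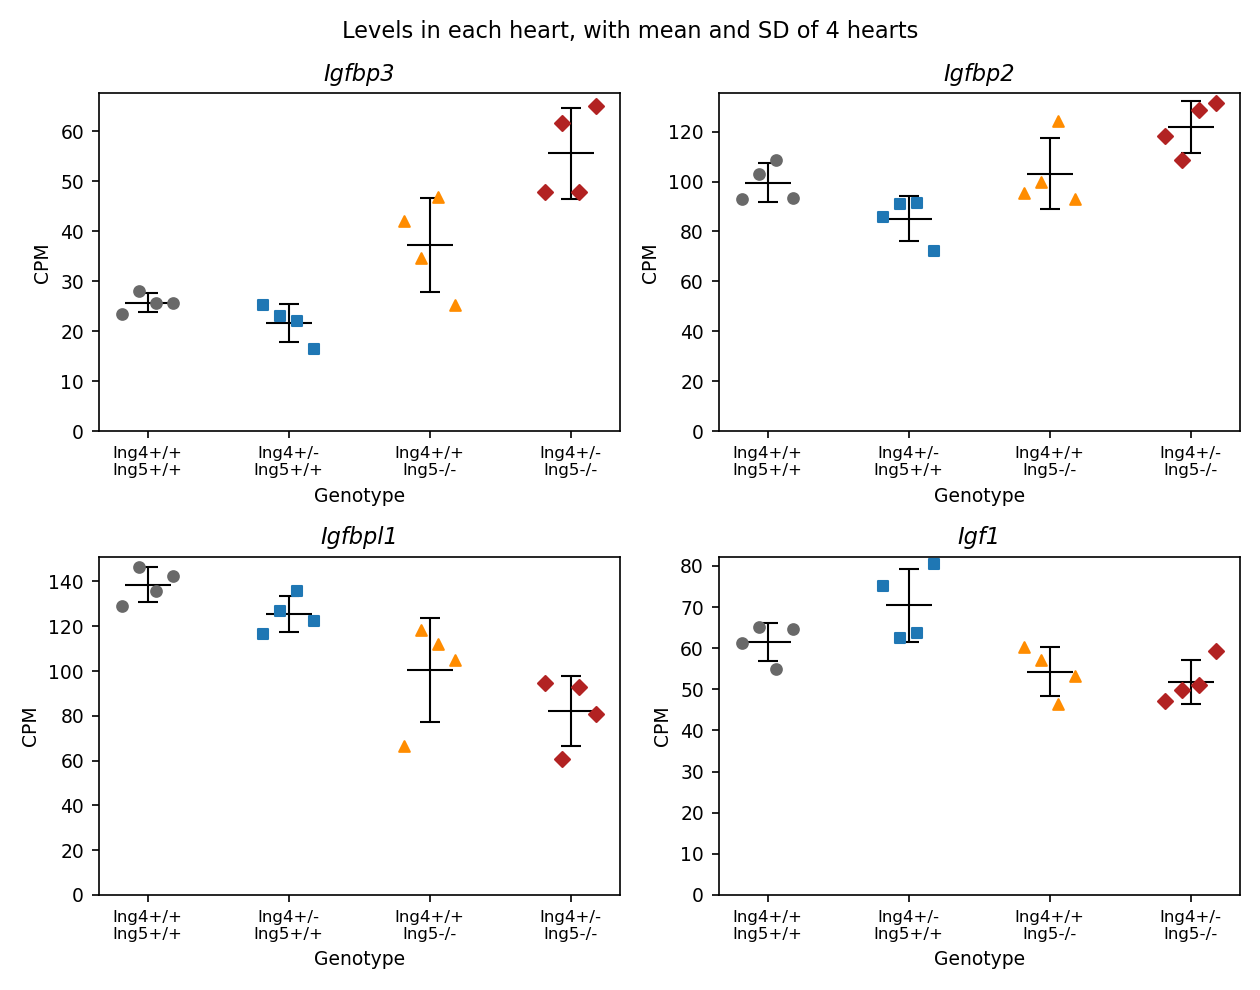
CPM of Igfbp3, Igfbp2, Igfbpl1 and Igf1 in each heart (points) with the mean and SD of 4 hearts per genotype. The Igfbp3 values of Ing4+/- Ing5-/- hearts (47.7 to 65.1 CPM) lie above those of every other genotype, and Igf1 in Ing4+/- hearts (62.4 to 80.5 CPM) lies above both Ing5-null genotypes.

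Ing5-/- against Ing4+/- hearts shares no heart with Ing4+/- Ing5-/- against wild-type hearts, but it may not be independent of the choice of Igfbp3, so its values too are a description. There the mean of Igfbp3 was 37.2 ± 9.46 against 21.7 ± 3.77 CPM, and the groups met without overlap, the lowest Ing5-/- value and the highest Ing4+/- value both printing as 25.2. The log2 difference was 0.77 ± 0.17. It was 0.92 without Ing5-/- 4 and 0.60 without the 3 libraries named above. In litter 7, the litter that held both genotypes, the difference was 0.62, on 1 heart each. In the other comparisons of Igfbp3 the log2 difference was 1.35 ± 0.17 for Ing4+/- Ing5-/- against Ing4+/- hearts, 0.58 ± 0.16 against Ing5-/- hearts and 0.53 ± 0.17 for Ing5-/- against wild-type hearts.

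Litters gave the same direction of Igfbp3 with different sizes. Between Ing4+/- Ing5-/- and Ing4+/- hearts of 1 litter, the log2 difference was 1.41 in litter 4, 1.11 in litter 6 and 1.98 in litter 7. Against Ing5-/- littermates it was 0.32 in litter 1 and 1.37 in litter 7. Against wild-type littermates it was 1.39 in litter 4 and 0.90 in litter 6. Since the Ing4+/- Ing5-/- hearts lay above all other hearts, each of these pairs had to go this way. The shared direction within litters is therefore a description and no further support.

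**Figure D3:**
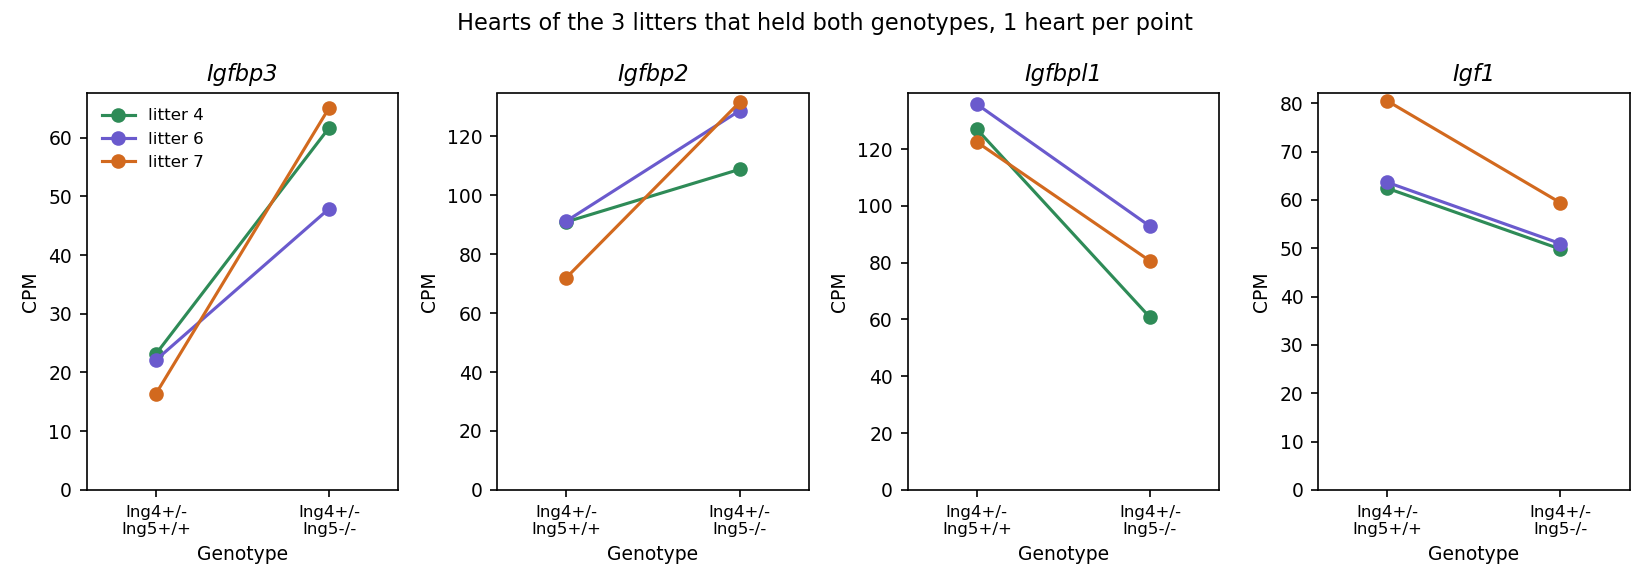
CPM of 4 genes in Ing4+/- and Ing4+/- Ing5-/- hearts of the same litter, with 1 line for each of litters 4, 6 and 7 and 1 heart per point. Igfbp3 and Igfbp2 lines rise and Igfbpl1 and Igf1 lines fall in each of the 3 litters, with the largest Igfbp3 difference in litter 7 (log2 1.98).

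Igfbp2, another carrier of both ligands, was also higher in Ing4+/- Ing5-/- than in Ing4+/- hearts. Igfbp2 (gene ID 16008, chromosome 1, 72824480 to 72852474, plus strand) measured 92.8, 103, 109 and 93.6 CPM in wild-type and 85.9, 91.0, 91.2 and 72.1 in Ing4+/- hearts. It measured 95.4, 99.8, 124 and 93.2 CPM in Ing5-/- and 118, 109, 129 and 132 in Ing4+/- Ing5-/- hearts. All Ing4+/- hearts were below all hearts of the other genotypes, and the Ing4+/- Ing5-/- hearts overlapped the Ing5-/- hearts only. The mean of Igfbp2 rose from 85.1 ± 9.0 to 121.8 ± 10.4 CPM between Ing4+/- and Ing4+/- Ing5-/- hearts, a log2 difference of 0.52 ± 0.10 (edgeR adjusted p = 0.0104). It was called in all 16 fits that left out 1 library and under all 12 other settings tried, with adjusted p from 0.000111 to 0.0424, and the difference within litters 4, 6 and 7 was 0.26, 0.50 and 0.87. Against wild-type hearts, Igfbp2 differed by 0.29 ± 0.10 in Ing4+/- Ing5-/- hearts and was not called (edgeR adjusted p = 0.210). The Ing4+/- hearts lay below wild-type hearts by 0.23 ± 0.10, also not called (edgeR adjusted p = 0.963). Igfbp2 lies 21.0 Mb from Ing5 on chromosome 1, and the gap to its neighbour Igfbp5 is 5.6 kb. The interaction of the Ing4 and Ing5 genotypes was 0.47 ± 0.14 for Igfbp2 and was not called (edgeR adjusted p = 0.830).

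Igfbpl1, a secreted relative with a binding protein domain, went the other way. Igfbpl1 (gene ID 75426, chromosome 4, 45809507 to 45826827, minus strand) measured 129, 147, 136 and 143 CPM in wild-type and 117, 127, 136 and 122 in Ing4+/- hearts. It measured 66.4, 118, 112 and 105 CPM in Ing5-/- and 94.8, 60.7, 92.8 and 80.6 in Ing4+/- Ing5-/- hearts. All wild-type hearts were above all hearts of both Ing5-null genotypes, and the 2 lowest values came from Ing5-/- 1 and Ing4+/- Ing5-/- 2. The choosing difference from wild-type hearts was -0.75 ± 0.15 on the log2 scale. For Igfbpl1 against Ing4+/- hearts it was -0.61 ± 0.15 in Ing4+/- Ing5-/- hearts and -0.32 ± 0.15 in Ing5-/- hearts. Without the 3 libraries named above, the choosing difference was -0.64 ± 0.07 and that between Ing5-/- and Ing4+/- hearts -0.18 ± 0.07. Between Ing4+/- Ing5-/- and Ing4+/- hearts it was then -0.50 ± 0.07, which edgeR called, while it did not with all libraries. In litter 1 the Ing4+/- Ing5-/- heart differed from its Ing5-/- littermates by 0.10, against -0.38 in litter 7.

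The remaining binding proteins, Igfbp4, Igfbp5 and Igfbp7, passed in no comparison. Igfbp4, an inhibitor of ligand action, ranged from 352 to 446 CPM over all hearts, with means of 381 ± 20.8 in wild-type hearts, 373 ± 15.7 in Ing4+/- hearts, 389 ± 20.9 in Ing5-/- hearts and 414 ± 37.3 in Ing4+/- Ing5-/- hearts. Igfbp5, which binds the extracellular matrix, averaged 1498 ± 229, 1851 ± 271, 1682 ± 293 and 1590 ± 261 CPM in that order. Among the pairwise comparisons its largest log2 difference was 0.31 ± 0.15 in Ing4+/- against wild-type hearts (edgeR adjusted p = 0.963), and its interaction was -0.39 ± 0.21 (0.843). Igfbp7, a weak binder of the ligands made by endothelial cells, averaged 27.6 ± 4.03, 25.3 ± 2.35, 29.4 ± 5.25 and 30.6 ± 3.11 CPM, and the gene overlaps Polr2b.

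The make-up of the binding protein transcripts is described here as shares, without a test. Igfbp5 held 42.6 ± 4.29% of the summed CPM per kilobase of the 6 genes in wild-type hearts, 49.5 ± 4.37% in Ing4+/- hearts, 45.5 ± 5.89% in Ing5-/- hearts and 42.2 ± 3.43% in Ing4+/- Ing5-/- hearts (SD, n = 4). Igfbp3 held 1.76 ± 0.190, 1.39 ± 0.218, 2.41 ± 0.514 and 3.56 ± 0.631% in that order, and Igfbpl1 held 8.51 ± 0.868, 7.28 ± 0.980, 5.90 ± 1.58 and 4.70 ± 0.844%. The Igfbp2 share was 10.1 ± 1.36% in Ing4+/- hearts and 14.3 ± 0.852% in Ing4+/- Ing5-/- hearts, without overlap. The 6 genes summed to 599 ± 38.2 CPM per kilobase in wild-type and 641 ± 66.0 in Ing4+/- Ing5-/- hearts, within their spread. In bulk hearts, fewer cells of a type and less RNA per cell cannot be told apart.

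**Figure D4:**
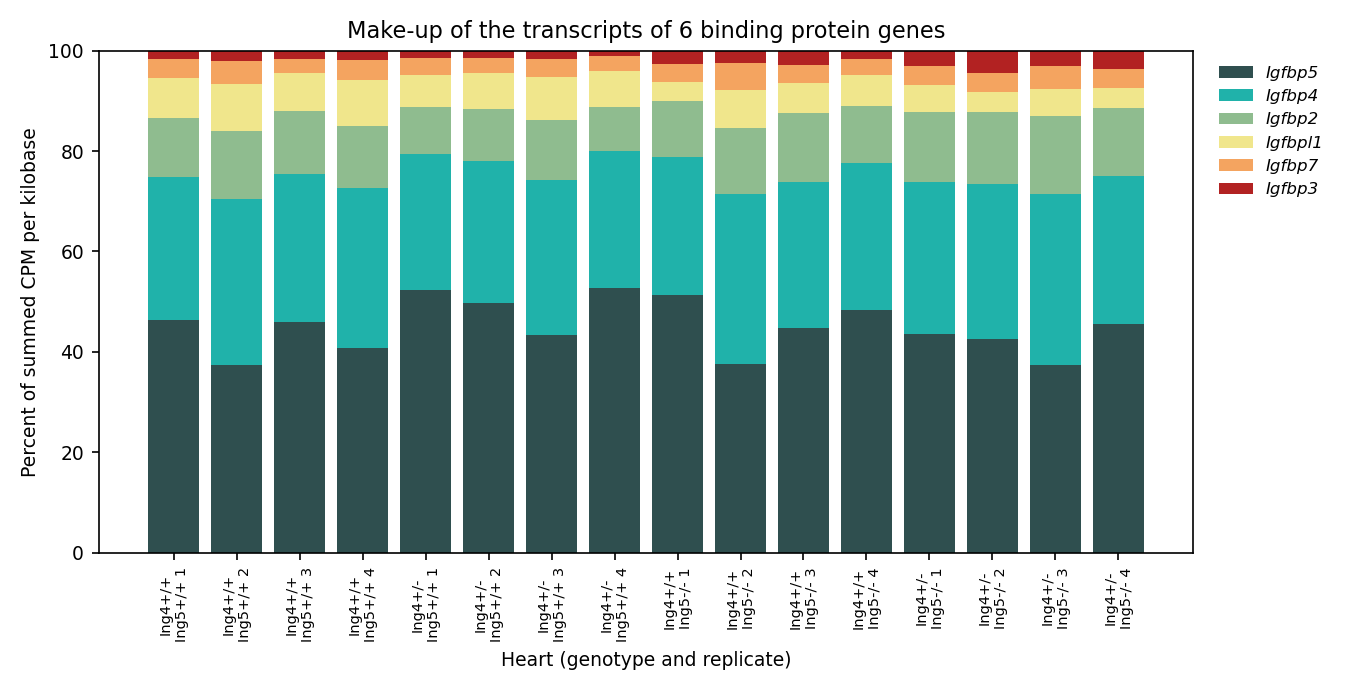
Share of each of 6 binding protein genes in their summed CPM per kilobase, 1 bar per heart. Igfbp5 and Igfbp4 fill most of each bar, and the Igfbp3 share averages 3.56% in Ing4+/- Ing5-/- hearts and 1.76% in wild-type hearts.

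Counted over the axis, calls at an adjusted p under 0.05 in edgeR were few. Ing4+/- Ing5-/- against wild-type hearts had 2 of 10 genes called, Igfbp3 and Igfbpl1, beside 0.855% of all genes, and nothing is read from that count. Ing4+/- Ing5-/- against Ing4+/- hearts had 3 of 10 called (Igfbp3, Igfbp2 and Igf1) beside 1.16% of all genes, with the Ing4+/- Ing5-/- hearts shared with the choosing contrast. The median log2 difference of the 10 genes was 0.17 there and 0 over all genes. Both of these count Igfbp3, so neither is a test of the axis.

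No gene of the axis was called in the other comparisons. In Ing5-/- against Ing4+/- hearts 0.0697% of all genes were called. There 5 of the 10 had an unadjusted p under 0.05 in edgeR, beside 12.3% of all genes. DESeq2 called 1 of the 10, Igfbp3, and 109 of all genes, and limma-voom called 0 of the 10. Ing5-/- against wild-type hearts had 0.0127% of all genes called, and 3 of the 10 at that unadjusted p in edgeR beside 9.59% of all genes. Ing4+/- against wild-type hearts had 0% of all genes called, and 2 of the 10 at the unadjusted p beside 4.73%. Ing4+/- Ing5-/- against Ing5-/- hearts had 0.00634% called, and 2 of the 10 at the unadjusted p beside 6.63%. The interaction had 0% of all genes called, and 2 of the 10 at the unadjusted p beside 5.88%. In these last 4, DESeq2 and limma-voom called 0 of the 10.

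Groups whose hearts did not overlap were counted too. Ing4+/- Ing5-/- and wild-type hearts did not overlap for 3 of the 10 genes and for 10.2% of all genes. They did not overlap with Ing4+/- hearts for 4 of the 10, Igf1, Igfbp2, Igfbp3 and Igfbpl1 (10.1% of all genes). Ing5-/- and Ing4+/- hearts did not overlap for 4 of the 10, Igf1, Igf1r, Igfbp2 and Igfbp3 (5.69%). The count was 1 for Ing5-/- against wild-type (Igfbpl1, 4.74%), 2 for Ing4+/- against wild-type (Igf2r and Igfbp2, 3.78%) and 1 for Ing4+/- Ing5-/- against Ing5-/- hearts (Igfbp3, 3% of all genes).

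**Figure D5:**
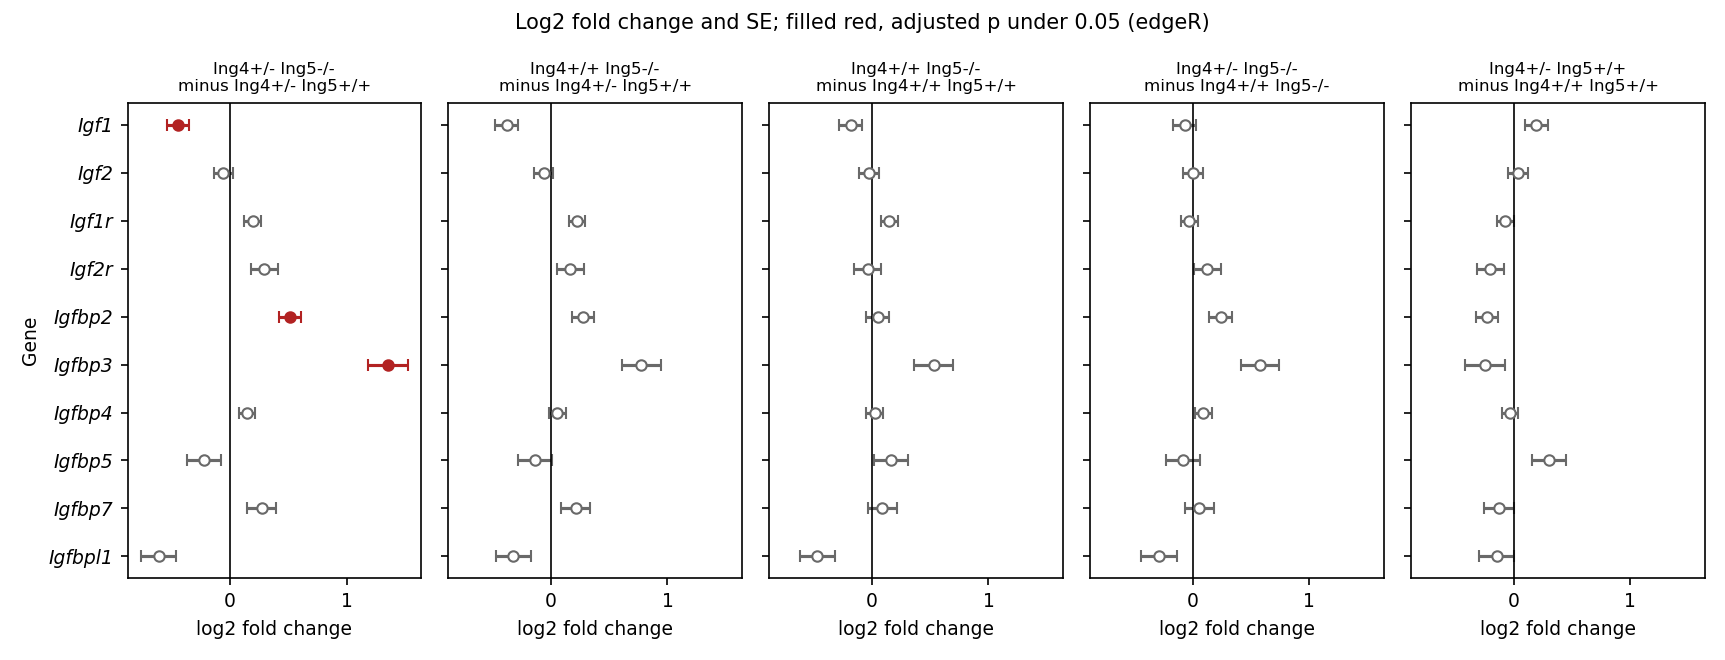
Log2 fold change and SE of the 10 genes in 5 comparisons, with filled red points at an edgeR adjusted p under 0.05. Only Ing4+/- Ing5-/- against Ing4+/- hearts holds red points among these 5, for Igf1 (-0.44), Igfbp2 (0.52) and Igfbp3 (1.35), and Igfbp3 was chosen by a contrast that used the same Ing4+/- Ing5-/- hearts.

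Across the 16 hearts some genes of the axis varied together, given here as descriptions over libraries that share genotype and litter. Igfbp2 and Igfbp3 had a Pearson r of 0.848, and 0.576 after genotype means were subtracted. Igf2 and Igfbp4 had r = 0.560, and 0.873 after that subtraction, so they varied together more closely within genotypes. Igfbp2 and Igfbp4 had 0.830 and 0.814, Igf1 and Igfbp2 -0.787 and -0.519, and Igfbp3 and Igfbpl1 -0.769 and -0.312. The neighbours Igfbp2 and Igfbp5 had r = -0.212 and 0.072.

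Of 13112 named genes outside the axis, those most like Igfbp3 were Trappc6a (r = 0.949 over 16 hearts, 0.722 after genotype means were subtracted), the epithelial keratin Krt19 (0.946 and 0.774) and Galk1 (0.940 and 0.707). Those most like Igfbpl1 were Rrm2, a subunit of ribonucleotide reductase (0.949 and 0.880), the ephrin Efnb3 (0.934 and 0.915) and Plekha7 (0.924 and 0.914). Those most like Igf1 were Cxadr (0.897 and 0.812), Hspa13 (0.885 and 0.802) and Septin7 (0.875 and 0.748). Cxadr and Hspa13 both lie on chromosome 16, and Krt19 and Galk1 both lie on chromosome 11, as does Igfbp3.

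Among genes that act around the axis, Stc2 and Pik3r3 were called. Stc2, a secreted inhibitor of the protease that cleaves Igfbp4, measured 9.25, 10.3, 6.24 and 11.6 CPM in Ing4+/- Ing5-/- and 2.41, 3.04, 2.17 and 4.31 in Ing4+/- hearts. It measured 6.44, 7.05, 9.79 and 5.42 CPM in Ing5-/- and 3.39, 5.42, 3.87 and 5.30 in wild-type hearts. Stc2 was thus above both Ing5-positive genotypes in every Ing5-null heart, by the narrowest margin between Ing5-/- 4 and wild-type 2. The log2 difference was 1.65 ± 0.25 against Ing4+/- hearts (edgeR adjusted p = 0.00157) and 1.06 ± 0.24 against wild-type hearts (adjusted p = 0.0386). The first was called in all 16 fits that left out 1 library. The second was lost without Ing4+/- Ing5-/- 1, 2 or 4, wild-type 1, 2, 3 or 4 or Ing4+/- 2 (edgeR adjusted p from 0.0535 to 0.161), with litter in the model (0.82, 0.552), with Y-linked expression in the model (0.0533) and by limma-voom (0.0740). In Ing5-/- against Ing4+/- hearts Stc2 differed by 1.27 ± 0.25 (edgeR adjusted p = 0.0608), and it was 0.71 (0.621) with litter in the model. It was called without Ing5-/- 1 or 4 (0.0488 and 0.0214), without the 3 libraries named above (0.0169) and by DESeq2 (0.000648), and under 2 of the other settings.

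Pik3r3, a regulatory subunit of the kinase downstream of Igf1r, measured 39.4, 38.8, 46.5 and 46.5 CPM in Ing4+/- Ing5-/- and 41.7, 42.6, 39.7 and 47.2 in Ing5-/- hearts. It measured 58.4, 54.9, 56.8 and 59.2 CPM in Ing4+/- and 54.4, 48.1, 56.1 and 53.2 in wild-type hearts. All hearts of the Ing5-null genotypes were below all others. Pik3r3 fell by 0.42 ± 0.08 on the log2 scale against Ing4+/- hearts in Ing4+/- Ing5-/- hearts (edgeR adjusted p = 0.0104) and by 0.42 ± 0.08 in Ing5-/- hearts (adjusted p = 0.0466). The first call was lost without Ing4+/- Ing5-/- 2 (adjusted p = 0.0505) and with litter in the model (0.0760). The second remained in 3 of 16 fits that left out 1 library, those without Ing4+/- Ing5-/- 2 or 4 or Ing5-/- 4, and its adjusted p ran from 0.0132 to 0.154 over the 16. It was called under 4 of 12 other settings and was lost with litter in the model (edgeR adjusted p = 0.553). Against wild-type hearts Pik3r3 differed by -0.31 in both Ing5-null genotypes. Neither difference was called (edgeR adjusted p = 0.0806 in Ing4+/- Ing5-/- and 0.316 in Ing5-/- hearts).

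The other pathway genes gave few calls. Of 10 genes for the breakdown of binding proteins, 9 were tested, and only Stc2 was called in any comparison. Of 30 genes of receptor signalling, 29 were tested, and only Pik3r3 was called. In Ing4+/- Ing5-/- against Ing4+/- hearts the median log2 difference was 0.11 for the first of these lists and -0.05 for the second. Of 9 genes of the Igf2 locus and RNA regulators, 0 were called in any comparison. H19, the imprinted RNA 72.6 kb from Igf2, averaged 10200 ± 707 CPM in wild-type and 10642 ± 135 in Ing4+/- Ing5-/- hearts, and Plagl1, an imprinted transcription factor, 626 ± 40.8 and 602 ± 53.6. Of 7 further family genes, Insr and Igfbp6 were tested and not called. The insulin receptor gene Insr averaged 83.4 ± 4.92 CPM in wild-type and 88.1 ± 12.8 in Ing4+/- Ing5-/- hearts, and Igfbp6 averaged 0.274 and 0.368 CPM. Ins1 and Ins2 had 0 reads in every heart. Igfbp1, which lies 3.5 kb from Igfbp3, did not exceed 0.392 CPM in any heart.

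Some of the other gene lists also differed between genotypes. No tested gene of the heart muscle, endothelial, cushion mesenchyme, neural, neural crest, or liver bud and endoderm lists was called in any comparison. The sum of 12 macrophage markers ranged from 19 to 25.9 CPM in wild-type hearts, 27.0 to 28.7 in Ing4+/- hearts, 29.3 to 73.5 in Ing5-/- hearts and 53.6 to 92.1 in Ing4+/- Ing5-/- hearts. No macrophage marker was at 0 in every heart of a genotype. In Ing4+/- Ing5-/- hearts 9 of 12 were called higher against wild-type hearts, beside 0.855% of all genes called. Against Ing4+/- hearts 2 of 12 were called higher there, beside 1.16% of all genes. The lists were chosen with earlier results of these data known, so such counts are descriptions. The sum of 14 low oxygen response genes ranged from 3423 to 3809 CPM in wild-type hearts, 3220 to 3537 in Ing4+/- hearts, 3123 to 5854 in Ing5-/- hearts and 4542 to 5349 in Ing4+/- Ing5-/- hearts. In Ing4+/- Ing5-/- hearts edgeR called 6 of 14 higher against wild-type hearts (0.855% of all genes called) and 7 of 14 against Ing4+/- hearts (1.16%). In Ing5-/- hearts no gene of the macrophage or low oxygen list was called against wild-type or Ing4+/- hearts (0.0127% and 0.0697% of all genes). In Ing5-/- 1, 2, 3 and 4 the low oxygen sum was 3123, 4136, 5854 and 4249 CPM, beside 42.1, 34.7, 46.9 and 25.2 CPM of Igfbp3. Ing5-/- 1 is among the 3 libraries named above, and a relation of the sum to Igfbp3 was not tested.

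The sum of 10 epicardial markers ranged from 416 to 518 CPM in Ing4+/- Ing5-/- and from 550 to 608 in wild-type hearts, and the Ing4+/- hearts (435 to 651) overlapped both, while Krt19 of that list was called higher in Ing4+/- Ing5-/- hearts. Ing5-/- 1 had 1340 CPM of that sum and Ing5-/- 4 had 386. Of 11 erythroid markers measured, 0 were called in Ing4+/- Ing5-/- hearts against wild-type or Ing4+/- hearts. All 11 were nonetheless higher there in both comparisons, with a median log2 difference of 1.09 against wild-type and 1.06 against Ing4+/- hearts. Their sum ranged from 7948 to 49723 CPM in Ing4+/- Ing5-/-, from 4945 to 19992 in Ing4+/- and from 9075 to 12067 in wild-type hearts. With the haemoglobin level as a covariate, the Igfbp3 difference from Ing4+/- hearts was 1.51. That of Igfbp2 was 0.59 and that of Igf1 -0.41 (edgeR adjusted p = 0.00293 and 0.0739). The part of the macrophage, low oxygen and epicardial lists in the differences of Igf1, Igfbp2, Igfbp3 and Igfbpl1 was not tested.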

How the data were processed

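Total RNA of 16 mouse embryo hearts was sequenced with a stranded kit, per the labels. The authors deposited raw read counts for each gene, as a series table and as 16 tables of 1 library that held the same counts. The submitters' processing notes name bcl2fastq, featureCounts and mm10. Their versions, the aligner, the annotation and the strand setting: not given in the sources used here. Gene lengths (other) that the authors deposited turned CPM into CPM per kilobase. Of 27179 gene IDs, 25275 (93.0%) matched a RefSeq entry, and the 1904 others took 2.08% of the reads.

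R 4.3.3 and edgeR 4.0.16 were used for the counts. The filter by group kept 15785 genes, TMM factors ranged from 0.967 to 1.08, and 1 quasi-likelihood fit with a mean for each of the 4 genotypes used all 16 libraries. A gene was called when its Benjamini-Hochberg adjusted p, taken over all tested genes, was under 0.05. Each SE is the log2 fold change over the square root of F. Library pairs within a genotype varied beyond counting error (chi-square per degree of freedom 6.54 to 109). Alternatives were DESeq2 1.42.0 size factors and Wald test, limma 3.58.1 (voom), other filters, only the groups compared, litter, replicate number, haemoglobin or Y-linked level as terms, and libraries left out. The robust estimate of the prior was adopted after a fit without it had been seen, and that fit was added as an alternative. The steps were tested on simulated data.

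The genes of the axis, the gene lists and the tests were chosen with earlier results of these data known. Named genes were all 10 of the axis, Ing4 and Ing5, the 3 genes most like Igfbp3, Igfbpl1 and Igf1 by Pearson r of log2 CPM (prior count 2, mean of at least 1 CPM), the called genes of 4 pathway lists, and otherwise up to 2 genes of a list by level. Separate embryos are labelled by litter. The p-values set differences between genotypes against the spread between hearts. Littermates counted as independent except where litter was in the model.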

Additional observations from a re-analysis of the deposited data

How the results depend on the processing

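Igfbp2 kept its direction and its call between Ing4+/- Ing5-/- and Ing4+/- hearts under all 28 settings. For all 10 genes, Stc2 and Pik3r3 in 7 comparisons, no called value reversed. Over all alternatives, 52 values lost a call, 17 gained one, 28 others moved by more than 1 SE and 2243 did neither. Against wild-type hearts, the 2 genes called in Ing4+/- Ing5-/- hearts became, as a description, 0 with litter as a block, in a fit where few litters hold both genotypes, and 1 with replicate number as a block or the haemoglobin level as a covariate. Igfbp2 was called there too with only the groups compared and without the 3 libraries named above, 2 of which stood apart on a principal component and 1 of which had the highest erythroid sum. Leaving out 1 library gave 1 to 2, and Igfbpl1 was lost without Ing4+/- Ing5-/- 2 or 4 or wild-type 1, 2, 3 or 4. For Ing5-/- against Ing4+/- hearts, the 0 genes called became 1, Igfbp3, by DESeq2 and with the haemoglobin level, and leaving out 1 library gave 0 to 1. The causes were not tested.

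Of 24 sample pairs that share a replicate number, 5 had residuals correlated over 0.1 (median 0.020). Numbers were thus not taken as pairing the hearts, and the replicate block changed no other count of the axis. Of 11 pairs of different genotype that share a litter, 3 were over 0.1 (median 0.024), and the main fit had no litter term. Of all genes, 135 were called against wild-type hearts (325 by DESeq2, 78 by limma-voom, 15 with litter, 465 with only the groups compared) and 183 against Ing4+/- hearts (486, 137, 78 and 282). Each genotype had 4 hearts. Counts ran from 376 reads upward for Igfbp3, while Stc2 had 52 reads in Ing4+/- 3. The part of depth in the precision was not tested.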
